A study of Rattus norvegicus with 29 samples.

Results

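The rat liver genes described here carry out the urea cycle and the breakdown of amino acids. They are 36 named genes, from the carbamoyl phosphate synthetase Cps1 to the lysine enzyme Aass, and a gene was taken as measured where an array row carries its symbol and no other. Of the 36, 33 were measured, among 14324 genes with such a row and 27342 rows in all. Aldh4a1, Uroc1 and Amdhd1 were not analysed here. Livers came from male Sprague-Dawley rats, 6 to 7 weeks of age, dosed once a day by oral gavage with PMCol, a pentamethyl chromanol that is the ring part of vitamin E without its side chain, or with the 1% methylcellulose in water that carried it. The groups were 2000 mg/kg killed on day 8 after 7 doses (6 rats), vehicle on day 8 (6 rats), and, killed on day 29 after 28 doses, vehicle (6 rats), 200 mg/kg (6 rats) and 2000 mg/kg (5 rats). RNA of the left liver lobe of each rat went on its own array, and rats given 200 mg/kg and killed on day 8 were not analysed here.

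Liver is the main site where the nitrogen of amino acids is made safe. Transaminases and dehydrases move or free the amino group, and the urea cycle joins ammonia and aspartate nitrogen into urea, partly in mitochondria and partly in the cytosol. The carbon skeletons are burned or turned into glucose, and in rat liver many of these enzymes are known to be raised by protein feeding, fasting, glucagon and glucocorticoids.

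The deposited values were log2 signals with each array row set to a median of 0 over the 29 livers, so 0 stands for a gene's own middle level and no value gives how abundant its RNA was. Array medians lay between -0.023 and 0.029. All 33 genes were among the 7816 rows whose stored signals, where judged, were 8 or more on the log2 scale. Values 1 or more from the row median were not judged. These took in every Sds value at 2000 mg/kg (-4.07 to -2.23 on day 8, -4.05 to -1.66 on day 29). Some values of Oat, Prodh, Gldc, Hal, Kmo and Got1 at 2000 mg/kg were also among them. Whether those signals were below 8 is not known. Every difference below is log2, PMCol minus vehicle unless stated, ± the standard error of a limma fit over all 29 animals, with a two-sided p adjusted by Benjamini-Hochberg over 27342 rows and a threshold of 0.05. Of 6 measured hepatocyte markers, 3 fell at 2000 mg/kg at day 8 (Ttr, Serpina1 and Fgb, by 0.16 to 0.22 on the log2 scale), and the 6 differences ran -0.22 to 0.011, the highest being that of Alb. At day 29, 1 fell (Serpina1, by 0.17), the 6 differences ran -0.17 to -0.020, and in 3 of the 6 every treated liver lay below every vehicle liver. Of all rows, 9.32% fell at day 8 and 9.55% at day 29, and of the 7816 rows 16.7% and 17%. Every treated liver lay below every vehicle liver at day 29 in 4.99% of all rows. In whole liver tissue, fewer cells of a type and less RNA per cell cannot be told apart.

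At 2000 mg/kg the genes of these pathways were mostly lower than in vehicle livers at both days. On day 8, 21 of the 33 fell and 0 rose, with a median difference of -0.29, against 9.32% of all rows that fell, 9.32% that rose and a median of -0.0049 over all rows. An unadjusted p under 0.05 would have added 1 rise. On day 29, 19 fell and 1 rose (Amt), with a median of -0.28, against 9.55% of all rows that fell, 12.1% that rose and a median of 0.0025. At day 29 an unadjusted p under 0.05 would give 22 lower and 3 higher (Amt, Nags and Gpt). The share of all rows was not counted at that threshold. Among the 7816 rows with stored signals of 8 or more, 16.7% fell and 19.8% rose at day 8, and 17% fell and 23.8% rose at day 29. The groups did not overlap, with every treated liver below every vehicle liver, for 16 of the 33 at day 8 (5.19% of all rows) and 18 at day 29 (4.99% of all rows). Every treated liver lay above every vehicle liver for 1 of the 33, Amt at day 29 (6.43% of all rows). Falls of more than 2-fold were found for 4 genes at day 8 (Sds, Oat, Prodh and Gldc) and 5 at day 29 (Sds, Oat, Gldc, Got1 and Hal). Among all 27342 rows, 106 fell by more than 2-fold at day 8 and 129 at day 29.

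**Figure D1:**
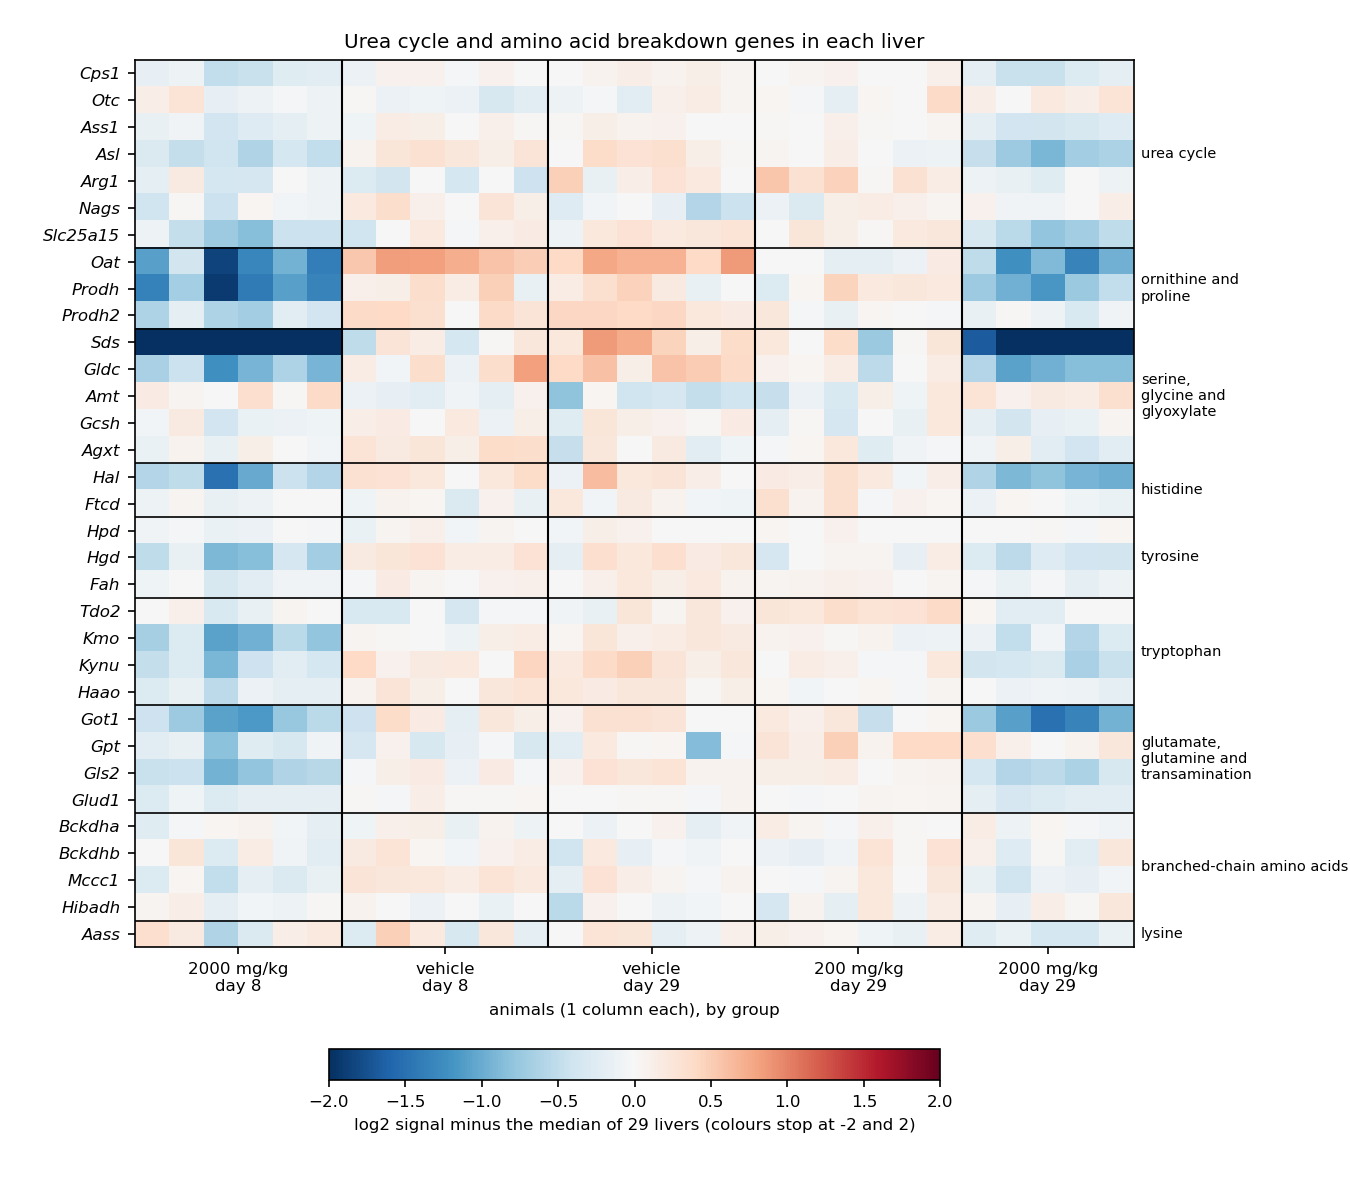
Log2 signal of each of the 33 genes (rows, by pathway) in each of the 29 livers (columns, by dose and day), centred on each gene's median over all livers, with colours that stop at -2 and 2. The blue blocks at 2000 mg/kg on both days take in Sds, Oat, Prodh, Gldc, Hal and Got1, while Otc, Hpd and Ftcd stay pale in all 5 groups.

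**Figure D2:**
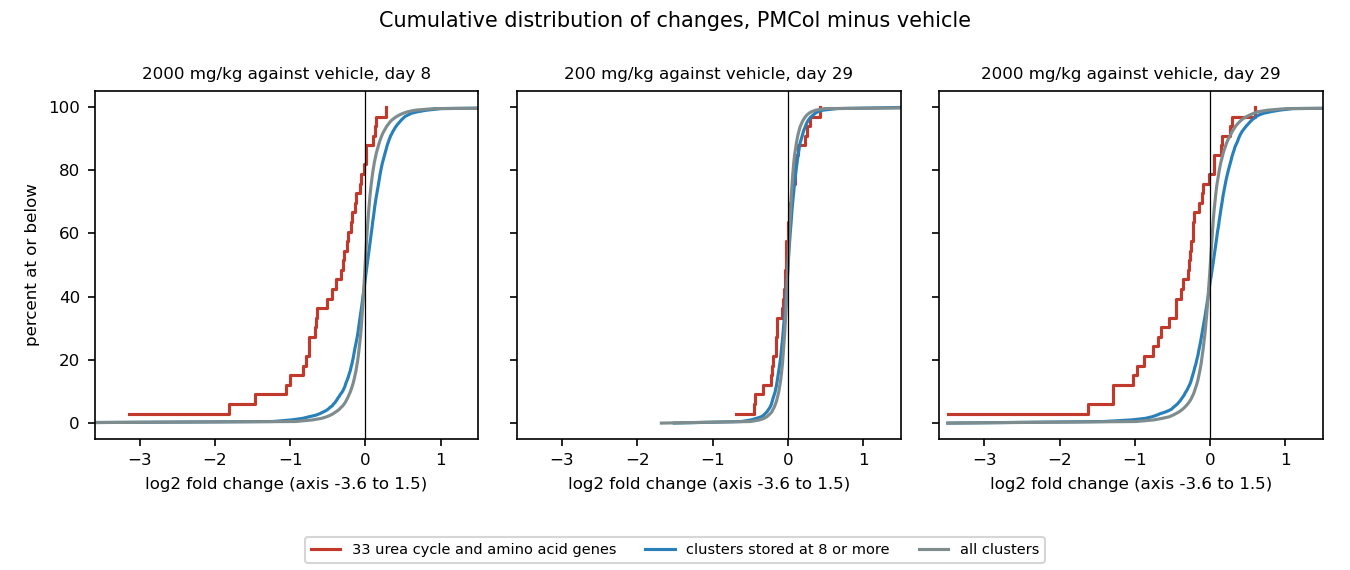
Cumulative percent (vertical axis) of the 33 genes, of the rows with stored signals of 8 or more and of all rows with a log2 difference at or below the value on the horizontal axis. The curve of the 33 genes lies left of both others at 2000 mg/kg, with medians of -0.29 at day 8 and -0.28 at day 29, and has a median of -0.030 at 200 mg/kg.

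In the urea cycle the fall was seen in 4 of 7 genes at both days: Cps1, Ass1, Asl and the ornithine carrier Slc25a15. Otc and Arg1 passed no test against vehicle at 2000 mg/kg, and Nags fell at day 8 but not at day 29. The RefSeq promoter windows (GRCr8 build, 250 bases before the annotated start and 50 from it on) of Cps1 and Asl, which fell, and of Otc, which did not pass, are shown because they act in the same cycle. Capitals mark the only match among the 7 short motifs searched, a GC box (GGGCGG, here on the other strand) in Asl. The windows lie at chr9:76063613-76063912 on the plus strand for Cps1, chr12:32295658-32295957 on the plus strand for Asl and chrX:15202424-15202723 on the minus strand for Otc.
Cps1: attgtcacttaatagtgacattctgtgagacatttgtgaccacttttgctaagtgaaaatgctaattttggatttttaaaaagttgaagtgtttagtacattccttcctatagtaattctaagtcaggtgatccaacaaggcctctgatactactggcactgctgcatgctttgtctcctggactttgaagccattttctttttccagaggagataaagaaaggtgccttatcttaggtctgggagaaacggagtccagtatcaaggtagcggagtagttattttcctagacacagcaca
Asl: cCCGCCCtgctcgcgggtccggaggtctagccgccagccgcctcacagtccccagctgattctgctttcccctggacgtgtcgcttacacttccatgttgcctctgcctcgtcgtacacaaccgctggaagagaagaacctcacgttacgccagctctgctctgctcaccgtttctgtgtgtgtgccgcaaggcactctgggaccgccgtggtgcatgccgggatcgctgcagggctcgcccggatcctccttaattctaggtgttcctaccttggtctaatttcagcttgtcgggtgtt
Otc: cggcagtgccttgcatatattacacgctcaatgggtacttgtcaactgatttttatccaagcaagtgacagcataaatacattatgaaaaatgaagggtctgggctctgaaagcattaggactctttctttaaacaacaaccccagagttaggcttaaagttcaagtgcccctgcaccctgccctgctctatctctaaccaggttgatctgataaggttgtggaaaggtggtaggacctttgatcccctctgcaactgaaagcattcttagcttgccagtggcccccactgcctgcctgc

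Cps1 makes carbamoyl phosphate from ammonia and is the entry step of the cycle. On day 8 its values ran -0.49 to -0.10 (median -0.23) at 2000 mg/kg, against -0.12 to 0.082 (median 0.044) in vehicle livers, and the ranges overlapped slightly. On day 29 the 5 livers at 2000 mg/kg had -0.44, -0.44, -0.28, -0.20 and -0.18, all below the vehicle livers at 0.012 to 0.13 (median 0.074). The differences were -0.29 ± 0.057 (adjusted p = 0.000377) at day 8 and -0.39 ± 0.060 (adjusted p = 1.96e-05) at day 29, so that the signal stood at 81.5% and 76.5% of vehicle.

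Ass1, which joins citrulline to aspartate, followed the same course. Its livers at 2000 mg/kg ran -0.39 to -0.075 (median -0.17) on day 8, against -0.090 to 0.15 (median 0.062) for vehicle, and had -0.38, -0.37, -0.32, -0.25 and -0.19 on day 29, against 0 to 0.12 (median 0.047) for vehicle. Only the day 29 groups were apart. It fell by 0.24 ± 0.048 (adjusted p = 0.000485) on the log2 scale at day 8 and by 0.36 ± 0.050 (adjusted p = 5.27e-06) at day 29.

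Asl, which splits argininosuccinate into arginine and fumarate, had the largest fall among the enzymes of the cycle. All 6 livers at 2000 mg/kg lay at -0.60 to -0.29 (median -0.44) on day 8, against 0.073 to 0.30 (median 0.23) in vehicle livers. On day 29 they had -0.92, -0.72, -0.70, -0.64 and -0.47, against 0.014 to 0.37 (median 0.20) in vehicle livers. Treated and vehicle livers were apart at both days, at -0.64 ± 0.070 (adjusted p = 1.06e-07) and -0.88 ± 0.074 (adjusted p = 8.07e-10), or 64.2% and 54.4% of vehicle.

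Slc25a15 carries ornithine into mitochondria, where Otc uses it. It ran -0.85 to -0.10 (median -0.45) at 2000 mg/kg on day 8, against -0.40 to 0.20 (median 0.055) for vehicle, and had -0.79, -0.69, -0.54, -0.51 and -0.32 on day 29, against -0.097 to 0.30 (median 0.22) for vehicle. The groups overlapped at day 8 and were apart at day 29. The differences were -0.51 ± 0.10 (adjusted p = 0.000643) and -0.76 ± 0.11 (adjusted p = 7.48e-06).

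Otc, which makes citrulline from ornithine and carbamoyl phosphate, did not pass in any comparison made. Its values at 2000 mg/kg ran -0.16 to 0.28 (median -0.074) on day 8, against -0.31 to 0.028 (median -0.12) for vehicle, and were 0.0032, 0.13, 0.14, 0.19 and 0.27 on day 29, against -0.21 to 0.15 (median 0.0055) for vehicle. The groups overlapped at both days, and the 95% intervals of the differences ran -0.030 to 0.30 at day 8 and -0.024 to 0.33 at day 29.

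Arg1, the arginase that frees urea, ran -0.35 to 0.18 (median -0.15) at 2000 mg/kg on day 8, against -0.41 to 0.015 (median -0.31) for vehicle. On day 29 it had -0.25, -0.15, -0.11, -0.097 and 0.014 at 2000 mg/kg, against -0.14 to 0.47 (median 0.17) for vehicle. The differences of 0.10 ± 0.10 (adjusted p = 0.578) and -0.28 ± 0.11 (adjusted p = 0.0672) did not pass. Its vehicle livers themselves differed with time, by 0.39 ± 0.10 (adjusted p = 0.0376) for day 29 minus day 8, a call that ended when any 1 of 9 animals was left out. Without vehicle animal 2 of day 29 the difference at 2000 mg/kg on day 29 was -0.34 and passed (adjusted p = 0.0224).

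Nags makes N-acetylglutamate, the activator of Cps1. On day 8 it ran -0.43 to 0.037 (median -0.080) at 2000 mg/kg, against 0.011 to 0.35 (median 0.16) for vehicle, a fall of 0.33 ± 0.095 (adjusted p = 0.0145) on the log2 scale. On day 29 it had -0.070, -0.068, 0, 0.089 and 0.14 at 2000 mg/kg, against -0.58 to -0.016 (median -0.21) for vehicle, a difference of 0.27 ± 0.10 (adjusted p = 0.0548) that did not pass. Under some other settings this rise did pass. It was 0.31 without vehicle animal 2 of day 29 (adjusted p = 0.0295) and 0.31 without vehicle animal 3 of day 29 (adjusted p = 0.0271). Vehicle livers of day 29 all lay below those of day 8, by -0.42 ± 0.095 (adjusted p = 0.0184). That call ended when any 1 of 3 animals was left out (adjusted p = 0.0511 to 0.0556) and with only the animals compared in the fit (adjusted p = 0.0605).

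In ornithine and proline breakdown all 3 measured genes fell at both days, and Oat had the largest fall. Oat moves the amino group of ornithine to make glutamate semialdehyde, so it draws on the same ornithine as the urea cycle. Its promoter window, at chr1:196797705-196798004 on the minus strand of GRCr8, is shown because Oat was lower at every dose and day studied. Capitals mark 2 CCAAT boxes (the first on the other strand, as ATTGG), 2 adjoining GC boxes (GGGCGG) and 1 half-site of the cAMP response element (TGACG).
Oat: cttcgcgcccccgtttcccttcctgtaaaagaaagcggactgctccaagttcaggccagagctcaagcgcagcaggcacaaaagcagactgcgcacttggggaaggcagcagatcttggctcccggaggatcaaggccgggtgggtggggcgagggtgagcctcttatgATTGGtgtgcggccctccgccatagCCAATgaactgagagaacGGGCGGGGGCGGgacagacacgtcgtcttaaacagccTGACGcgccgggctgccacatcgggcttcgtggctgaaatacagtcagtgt

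Oat values ran -1.86 to -0.36 (median -1.20) at 2000 mg/kg on day 8, against 0.49 to 0.83 (median 0.65) in vehicle livers. On day 29 the livers at 2000 mg/kg had -1.34, -1.22, -0.96, -0.88 and -0.51, against 0.40 to 0.85 (median 0.70) in vehicle livers. Every treated liver lay below every vehicle liver at both days. The falls were 1.82 ± 0.16 (adjusted p = 1.65e-09) and 1.62 ± 0.17 (adjusted p = 3.43e-08) on the log2 scale, which leaves 28.3% and 32.6% of vehicle, and ranked 21 and 31 from the lowest among 27342 rows.

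Prodh, proline dehydrogenase, opens the breakdown of proline. It ran -1.92 to -0.68 (median -1.35) at 2000 mg/kg on day 8, against -0.15 to 0.48 (median 0.13) for vehicle, and had -1.16, -0.95, -0.74, -0.72 and -0.49 on day 29, against -0.15 to 0.46 (median 0.17) for vehicle. The groups were apart at both days, at -1.47 ± 0.15 (adjusted p = 3.32e-08) and -0.97 ± 0.16 (adjusted p = 3.8e-05).

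Prodh2 acts on hydroxyproline. Its livers at 2000 mg/kg ran -0.69 to -0.19 (median -0.50) on day 8, against 0 to 0.40 (median 0.35) for vehicle, and had -0.31, -0.15, -0.10, -0.068 and 0.019 on day 29, against 0.17 to 0.42 (median 0.40) for vehicle. Both days kept the groups apart, with falls of 0.75 ± 0.085 (adjusted p = 1.79e-07) and 0.46 ± 0.089 (adjusted p = 0.000318) on the log2 scale.

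Among the serine and glycine genes, Sds and Gldc fell strongly while Amt, which works in the same glycine cleavage system as Gldc, was higher. Sds, serine dehydratase, turns serine into pyruvate and ammonia and is a classic gluconeogenic enzyme of rat liver. Its values ran -4.07 to -2.23 (median -3.24) at 2000 mg/kg on day 8, against -0.51 to 0.26 (median 0.084) in vehicle livers. On day 29 they were -4.05, -3.42, -3.08, -2.91 and -1.66 at 2000 mg/kg, against 0.12 to 0.85 (median 0.41) in vehicle livers. A wide gap parted every treated liver from every vehicle liver on each day. With -3.14 ± 0.31 (adjusted p = 1.3e-08) at day 8 and -3.48 ± 0.32 (adjusted p = 4.74e-09) at day 29, the signal stood at 11.3% and 8.94% of vehicle, ranking 5 and 1 from the lowest of 27342 rows.

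Gldc is the decarboxylase of the glycine cleavage system, Amt its aminomethyltransferase and Gcsh its lipoyl carrier. The Gldc window, chr1:237375555-237375854 on the minus strand of GRCr8, is shown beside that of Oat because both fell more than 2-fold, and it also holds 2 CCAAT boxes (1 on each strand) and 2 GC boxes (both on the other strand, as CCGCCC), in capitals.
Gldc: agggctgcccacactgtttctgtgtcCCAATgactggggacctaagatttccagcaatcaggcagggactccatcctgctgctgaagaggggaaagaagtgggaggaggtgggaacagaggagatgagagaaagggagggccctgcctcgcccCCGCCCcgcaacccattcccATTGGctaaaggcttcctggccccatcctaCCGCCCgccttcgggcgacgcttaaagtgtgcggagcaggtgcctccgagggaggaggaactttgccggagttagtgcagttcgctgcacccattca

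Gldc ran -1.23 to -0.43 (median -0.79) at 2000 mg/kg on day 8, against -0.11 to 0.82 (median 0.25) for vehicle, and had -1.06, -0.96, -0.85, -0.84 and -0.59 on day 29, against 0.11 to 0.58 (median 0.45) for vehicle. Treated and vehicle livers were apart at both days. The falls were 1.05 ± 0.14 (adjusted p = 2.48e-06) and 1.29 ± 0.15 (adjusted p = 1.99e-07) on the log2 scale.

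Amt went the other way. It ran 0 to 0.39 (median 0.11) at 2000 mg/kg on day 8, against -0.22 to 0.092 (median -0.13) for vehicle, and had 0.092, 0.15, 0.18, 0.28 and 0.32 on day 29, against -0.81 to 0.043 (median -0.39) for vehicle. On day 29 every treated liver lay above every vehicle liver, at 0.60 ± 0.11 (adjusted p = 0.000242), while the day 8 difference was 0.27 ± 0.11 (adjusted p = 0.0832). A further array row of Amt, whose signals were not all 8 or more, differed by 0.23 ± 0.08 (adjusted p = 0.0372) and 0.26 ± 0.08 (adjusted p = 0.0232), and it did pass at day 8. Gcsh differed by -0.18 ± 0.091 (adjusted p = 0.183) and -0.23 ± 0.095 (adjusted p = 0.0909), neither of which passed.

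Agxt, an enzyme that turns glyoxylate into glycine, fell at day 8 by 0.28 ± 0.094 (adjusted p = 0.0351) on the log2 scale. Its livers at 2000 mg/kg ran -0.15 to 0.11 (median -0.025), all below the vehicle livers at 0.12 to 0.37 (median 0.26). The call ended when any 1 of 7 animals was left out (adjusted p up to 0.0789), and the day 29 difference was -0.096 ± 0.099 (adjusted p = 0.556).

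Of the histidine genes Hal fell and Ftcd did not pass. Hal, histidine ammonia-lyase, frees ammonia from histidine as the entry step. It ran -1.50 to -0.43 (median -0.59) at 2000 mg/kg on day 8, against -0.010 to 0.37 (median 0.26) for vehicle, and had -0.97, -0.93, -0.90, -0.81 and -0.60 on day 29, against -0.12 to 0.61 (median 0.17) for vehicle. The groups were apart at both days, at -1.0 ± 0.13 (adjusted p = 2.13e-06) and -1.03 ± 0.14 (adjusted p = 2.62e-06). Ftcd, which hands the formimino group left from histidine to folate, differed by 0.012 ± 0.069 (adjusted p = 0.941) and -0.10 ± 0.072 (adjusted p = 0.363).

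In tyrosine breakdown Hgd and Fah fell at both days and Hpd passed at neither. Hgd opens the ring of homogentisate. Its livers at 2000 mg/kg ran -0.90 to -0.15 (median -0.60) on day 8, against 0.14 to 0.29 (median 0.21) for vehicle, and had -0.53, -0.38, -0.36, -0.27 and -0.25 on day 29, against -0.18 to 0.34 (median 0.22) for vehicle. Both days kept the groups apart, with falls of 0.78 ± 0.10 (adjusted p = 1.98e-06) and 0.54 ± 0.11 (adjusted p = 0.000447) on the log2 scale.

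Fah, the closing enzyme of the tyrosine pathway, fell by a small amount. It ran -0.31 to -0.010 (median -0.083) at 2000 mg/kg on day 8, against -0.026 to 0.16 (median 0.068) for vehicle, and had -0.20, -0.14, -0.096, -0.028 and -0.027 on day 29, against 0 to 0.22 (median 0.11) for vehicle. The groups overlapped at day 8 and were apart at day 29, at -0.19 ± 0.047 (adjusted p = 0.00401) and -0.22 ± 0.050 (adjusted p = 0.00184). Hpd, which makes homogentisate, differed by -0.075 ± 0.038 (adjusted p = 0.189) and -0.015 ± 0.039 (adjusted p = 0.84), and its 95% intervals of -0.15 to 0.0022 and -0.096 to 0.066 were among the narrowest of the 33 genes.

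In tryptophan breakdown Kmo, Kynu and Haao fell at both days, and Tdo2 passed no test against vehicle. Kmo, which hydroxylates kynurenine, ran -1.08 to -0.27 (median -0.72) at 2000 mg/kg on day 8, against -0.11 to 0.14 (median 0.041) for vehicle, and had -0.58, -0.49, -0.27, -0.11 and -0.049 on day 29, against 0.034 to 0.24 (median 0.17) for vehicle. No treated liver reached the vehicle range on either day, and the falls were 0.75 ± 0.098 (adjusted p = 1.8e-06) and 0.45 ± 0.10 (adjusted p = 0.00161) on the log2 scale.

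Kynu splits the side chain from kynurenines. Its values at 2000 mg/kg ran -0.91 to -0.22 (median -0.39) on day 8, against 0 to 0.44 (median 0.19) for vehicle, and were -0.65, -0.44, -0.36, -0.35 and -0.29 on day 29, against 0.12 to 0.48 (median 0.24) for vehicle. The groups were apart at both days, at -0.66 ± 0.092 (adjusted p = 5.18e-06) and -0.69 ± 0.097 (adjusted p = 4.44e-06).

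Haao leads on to quinolinate, the precursor of NAD. It ran -0.52 to -0.12 (median -0.19) at 2000 mg/kg on day 8, against -0.0021 to 0.27 (median 0.17) for vehicle, and had -0.19, -0.12, -0.095, -0.065 and -0.0011 on day 29, against 0.029 to 0.23 (median 0.19) for vehicle. The groups did not overlap, with falls of 0.40 ± 0.056 (adjusted p = 6.45e-06) and 0.26 ± 0.059 (adjusted p = 0.00192) on the log2 scale. Tdo2, which opens the tryptophan ring, differed by 0.13 ± 0.076 (adjusted p = 0.293) and -0.14 ± 0.080 (adjusted p = 0.219).

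Among the enzymes that handle glutamate, glutamine and alanine, Got1, Gls2 and Glud1 fell at both days and Gpt passed at neither. Got1 is the cytosolic aspartate transaminase, whose plasma activity is read as a sign of liver injury together with that of Gpt. It ran -1.16 to -0.42 (median -0.74) at 2000 mg/kg on day 8, against -0.41 to 0.37 (median 0.14) for vehicle, and had -1.49, -1.34, -1.08, -0.95 and -0.75 on day 29, against 0.014 to 0.31 (median 0.17) for vehicle. All treated livers lay below all vehicle livers, by a margin that was narrow on day 8 and wide on day 29. The differences were -0.83 ± 0.14 (adjusted p = 7.37e-05) and -1.29 ± 0.15 (adjusted p = 2.15e-07).

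Gls2, the liver glutaminase that feeds ammonia and glutamate to the urea cycle, ran -0.94 to -0.43 (median -0.58) at 2000 mg/kg on day 8, against -0.12 to 0.16 (median 0.046) for vehicle. On day 29 it had -0.64, -0.58, -0.52, -0.36 and -0.32 at 2000 mg/kg, against 0.063 to 0.28 (median 0.16) for vehicle. The groups stood apart with nearly the same fall at both days, 0.67 ± 0.075 (adjusted p = 1.36e-07) and 0.65 ± 0.078 (adjusted p = 4.75e-07) on the log2 scale.

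Glud1, glutamate dehydrogenase, fell by a small and even amount. It ran -0.28 to -0.083 (median -0.19) at 2000 mg/kg on day 8, against -0.020 to 0.13 (median 0.025) for vehicle, and had -0.34, -0.27, -0.23, -0.22 and -0.20 on day 29, against -0.030 to 0.072 (median 0.018) for vehicle. Treated and vehicle livers did not overlap, at -0.24 ± 0.034 (adjusted p = 7.03e-06) and -0.27 ± 0.035 (adjusted p = 1.76e-06). Gpt, alanine transaminase, differed by -0.13 ± 0.13 (adjusted p = 0.591) and 0.29 ± 0.14 (adjusted p = 0.146), neither past the threshold.

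Of 4 genes for branched-chain amino acids only Mccc1 passed a test against vehicle. Mccc1 is a subunit of the carboxylase in leucine breakdown. Its livers at 2000 mg/kg ran -0.49 to 0.041 (median -0.23) on day 8, against 0.15 to 0.27 (median 0.22) for vehicle, and had -0.39, -0.16, -0.15, -0.11 and -0.053 on day 29, against -0.19 to 0.28 (median 0.063) for vehicle. The groups were apart at day 8 and overlapped at day 29, at -0.44 ± 0.074 (adjusted p = 6.19e-05) and -0.23 ± 0.078 (adjusted p = 0.0366). The day 29 call ended when any 1 of 7 animals was left out (adjusted p up to 0.134).

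Bckdha and Bckdhb, subunits of the branched-chain keto acid dehydrogenase, and Hibadh, of valine breakdown, differed by -0.14 to 0.16 at 2000 mg/kg over both days and passed at neither. Aass, which opens lysine breakdown, ran -0.61 to 0.33 (median 0.16) at 2000 mg/kg on day 8, against -0.32 to 0.47 (median 0.0048) for vehicle. On day 29 it had -0.36, -0.35, -0.24, -0.14 and -0.13 at 2000 mg/kg, against -0.18 to 0.28 (median 0.051) for vehicle. The groups overlapped, and the differences of -0.024 ± 0.13 (adjusted p = 0.938) and -0.30 ± 0.14 (adjusted p = 0.141) did not pass.

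**Figure D3:**
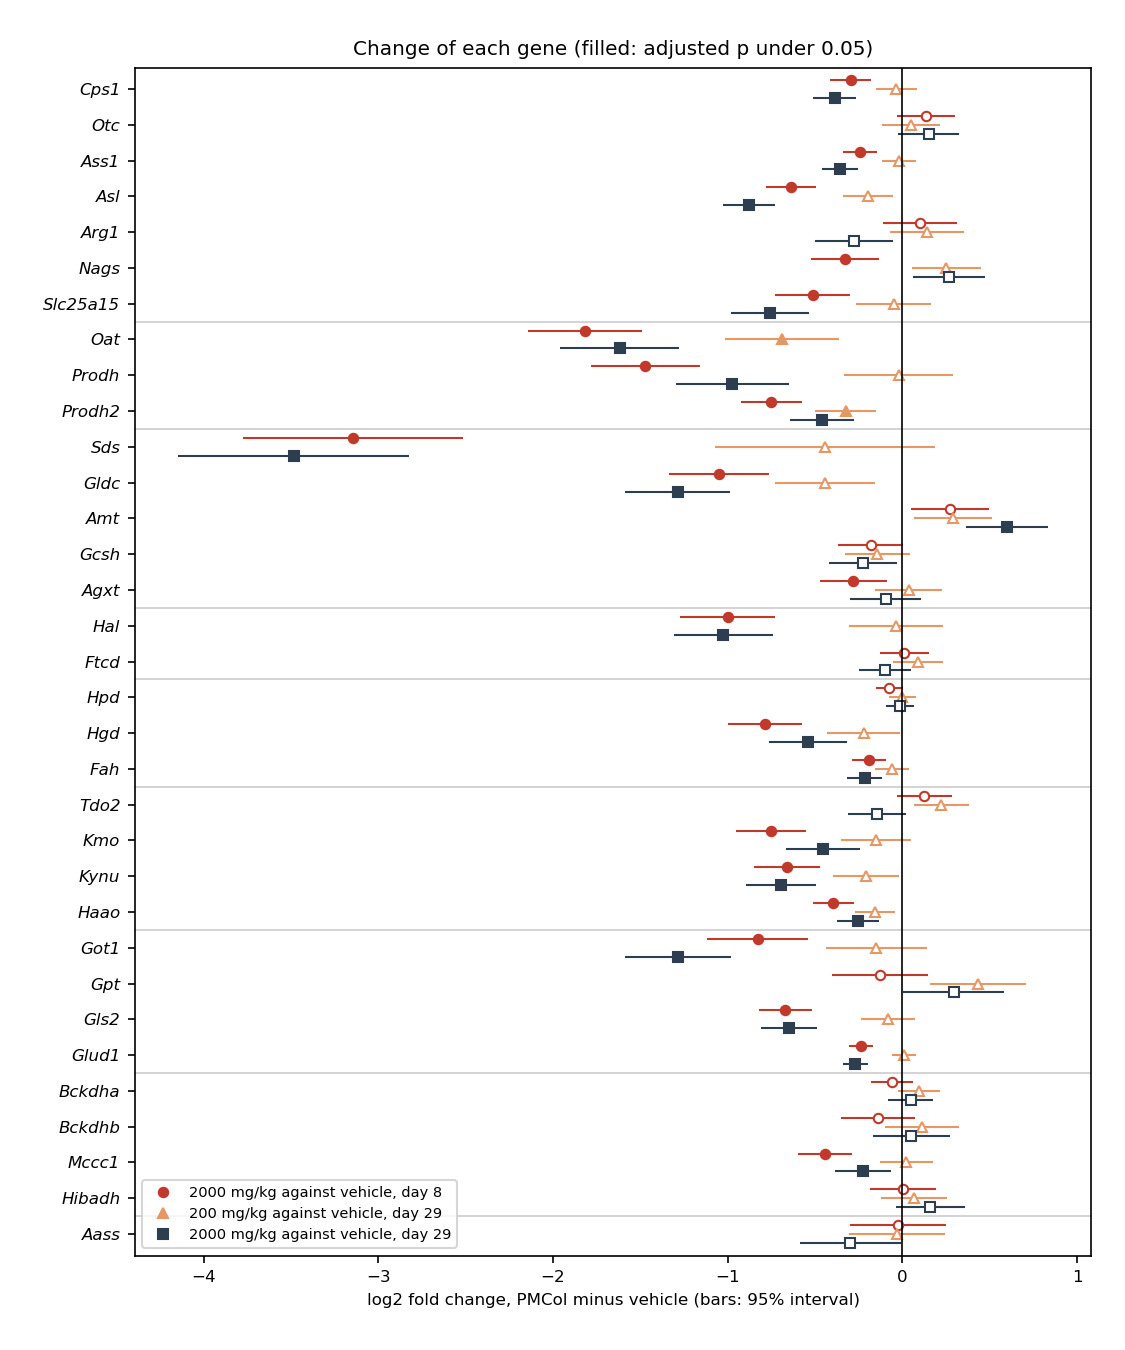
Log2 difference of PMCol minus vehicle for each of the 33 genes, with 95% intervals as bars, for 2000 mg/kg at day 8, 200 mg/kg at day 29 and 2000 mg/kg at day 29; filled symbols passed an adjusted p of 0.05 and grey lines part the pathways. Sds lies farthest left at 2000 mg/kg on both days, and at 200 mg/kg only Oat and Prodh2 are filled.

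The genes that fell at day 8 were nearly those that fell at day 29. Of the 21 called at day 8, 19 (90.5%) were called at day 29, and these made up 100% of the day 29 falls; Nags and Agxt made up the rest. Of the 33, 11 passed at neither day: Otc, Arg1, Gcsh, Ftcd, Hpd, Tdo2, Gpt, Bckdha, Bckdhb, Hibadh and Aass. Over the 33 genes the day 8 and day 29 differences, which come from separate animals and separate vehicle groups, had a Pearson correlation of 0.936 and a Spearman correlation of 0.837, given as a description across genes that are not independent. Among the 19, the fall was larger at day 29 for 11. The overlap of calls and the correlation between days were not worked out over all rows. Neither can therefore be called particular to these genes.

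A test of the change itself, the day 29 difference minus the day 8 difference, passed for 1 of the 33 genes, against 0.775% of all rows. That gene was Nags, at 0.59 ± 0.14 (adjusted p = 0.0367). The call ended when any 1 of 10 animals was left out (adjusted p up to 0.0754). The change was -0.46 for Got1 and 0.50 for Prodh, neither past the threshold (adjusted p = 0.288 and 0.283). Between vehicle livers of day 29 and day 8, 1 of the 33 rose, Arg1, against 0.962% of all rows, and 1 fell, Nags, against 1.77%.

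The 200 mg/kg dose was tested at day 29, where 2 of the 33 genes fell and 0 rose, against 1.42% of all rows that fell and 1.37% that rose. At an unadjusted p under 0.05 the counts would be 7 lower and 4 higher, the higher ones being Nags, Amt, Tdo2 and Gpt. The largest of these rises was that of Gpt, at 0.43 (adjusted p = 0.0822), which did not pass. The shares of all rows are at the adjusted threshold and were not counted at the unadjusted one. The median difference of the 33 genes was -0.030, and that of all rows was 0.0033. Every liver at 200 mg/kg lay below every vehicle liver for 1 gene, Oat, against 0.684% of all rows.

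Oat fell at 200 mg/kg by 0.69 ± 0.16 (adjusted p = 0.0135) on the log2 scale. Its medians on day 29 were 0.70 at vehicle, -0.058 at 200 mg/kg and -0.96 at 2000 mg/kg, and no 2 of the 3 groups overlapped. Prodh2 fell at 200 mg/kg by 0.33 ± 0.085 (adjusted p = 0.0322) on the log2 scale, and its values there ran -0.15 to 0.23 (median -0.014), against 0.17 to 0.42 (median 0.40) for vehicle. That call for Prodh2 ended when any 1 of 9 animals was left out (adjusted p up to 0.0769) and stood at 0.122 without vehicle animals 1 and 2 of day 29.

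Of the 19 genes that fell at 2000 mg/kg at day 29, 17 had a difference below 0 at 200 mg/kg, and 2 of them passed. Of all 27342 rows, 13191 had a difference below 0 at 200 mg/kg. Both doses were set against the same vehicle livers, so a lean below 0 among the 19 was partly built in. At an unadjusted p under 0.05 the lower ones would be 7: Asl, Oat, Prodh2, Gldc, Hgd, Kynu and Haao. Sds ran -0.74 to 0.37 (median 0.11) at 200 mg/kg, against 0.12 to 0.85 (median 0.41) for vehicle, a difference of -0.44 ± 0.31 (adjusted p = 0.601). Gldc ran -0.52 to 0.15 (median 0.057), against 0.11 to 0.58 (median 0.45) for vehicle, at -0.44 ± 0.14 (adjusted p = 0.0907). Neither passed, and the ranges overlapped.

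Cps1 ran -0.0026 to 0.10 (median 0.034) at 200 mg/kg, and its difference from vehicle was -0.036 ± 0.057 (adjusted p = 0.877). Asl ran -0.11 to 0.13 (median -0.0011), at -0.20 ± 0.070 (adjusted p = 0.156). Slc25a15 ran 0.011 to 0.24 (median 0.16), at -0.049 ± 0.10 (adjusted p = 0.919). None of these urea cycle genes passed at 200 mg/kg.

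Prodh ran -0.27 to 0.44 (median 0.20) at 200 mg/kg, Hal -0.057 to 0.32 (median 0.15), Got1 -0.46 to 0.22 (median 0.070) and Gls2 0 to 0.15 (median 0.087), with 95% intervals of the difference of -0.33 to 0.29 for Prodh, -0.31 to 0.23 for Hal, -0.44 to 0.14 for Got1 and -0.24 to 0.070 for Gls2. These comparisons use the same vehicle livers as those of 2000 mg/kg.

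The 2 doses were set against each other directly. At day 29, 17 of the 33 genes were lower and 0 higher at 2000 than at 200 mg/kg, against 3.84% of all rows that fell and 6.05% that rose. An unadjusted p under 0.05 would give 20 lower and 1 higher, for which the share of all rows was not counted. In 17 of the 33 every liver at 2000 mg/kg lay below every liver at 200 mg/kg, against 2.5% of all rows. Of the 19 genes below vehicle, 15 were also below 200 mg/kg by this test, while Prodh2, Hgd, Kmo and Haao were not. Both tests use the same livers at 2000 mg/kg, so this agreement was partly built in. Its share over all rows was not worked out. Of the genes not below 200 mg/kg by the test, Hgd (adjusted p = 0.0614) and Kmo (adjusted p = 0.0605) lay near the threshold. Both passed under some other settings, such as quantile normalization (adjusted p = 0.0215 and 0.0241). Sds, at -3.04 ± 0.32 (adjusted p = 2.27e-07), had the lowest difference of all 27342 rows.

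Arg1 and Tdo2 passed between the doses but not against vehicle. Arg1 had -0.25, -0.15, -0.11, -0.097 and 0.014 at 2000 mg/kg, against 0.027 to 0.55 (median 0.31) at 200 mg/kg, a fall of 0.42 ± 0.11 (adjusted p = 0.0117) on the log2 scale. Tdo2 ran -0.23 to 0.044 (median -0.00027) at 2000 mg/kg, against 0.20 to 0.38 (median 0.28) at 200 mg/kg, a fall of 0.37 ± 0.080 (adjusted p = 0.00288). In both genes every liver at 2000 mg/kg lay below every liver at 200 mg/kg, and the 200 mg/kg mean was above that of vehicle by 0.14 for Arg1 and 0.22 for Tdo2, neither past the threshold. The smallest falls between doses were those of Fah and Mccc1, whose calls (adjusted p = 0.0399 and 0.0402) ended when any 1 of 8 and of 6 animals was left out.

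**Figure D4:**
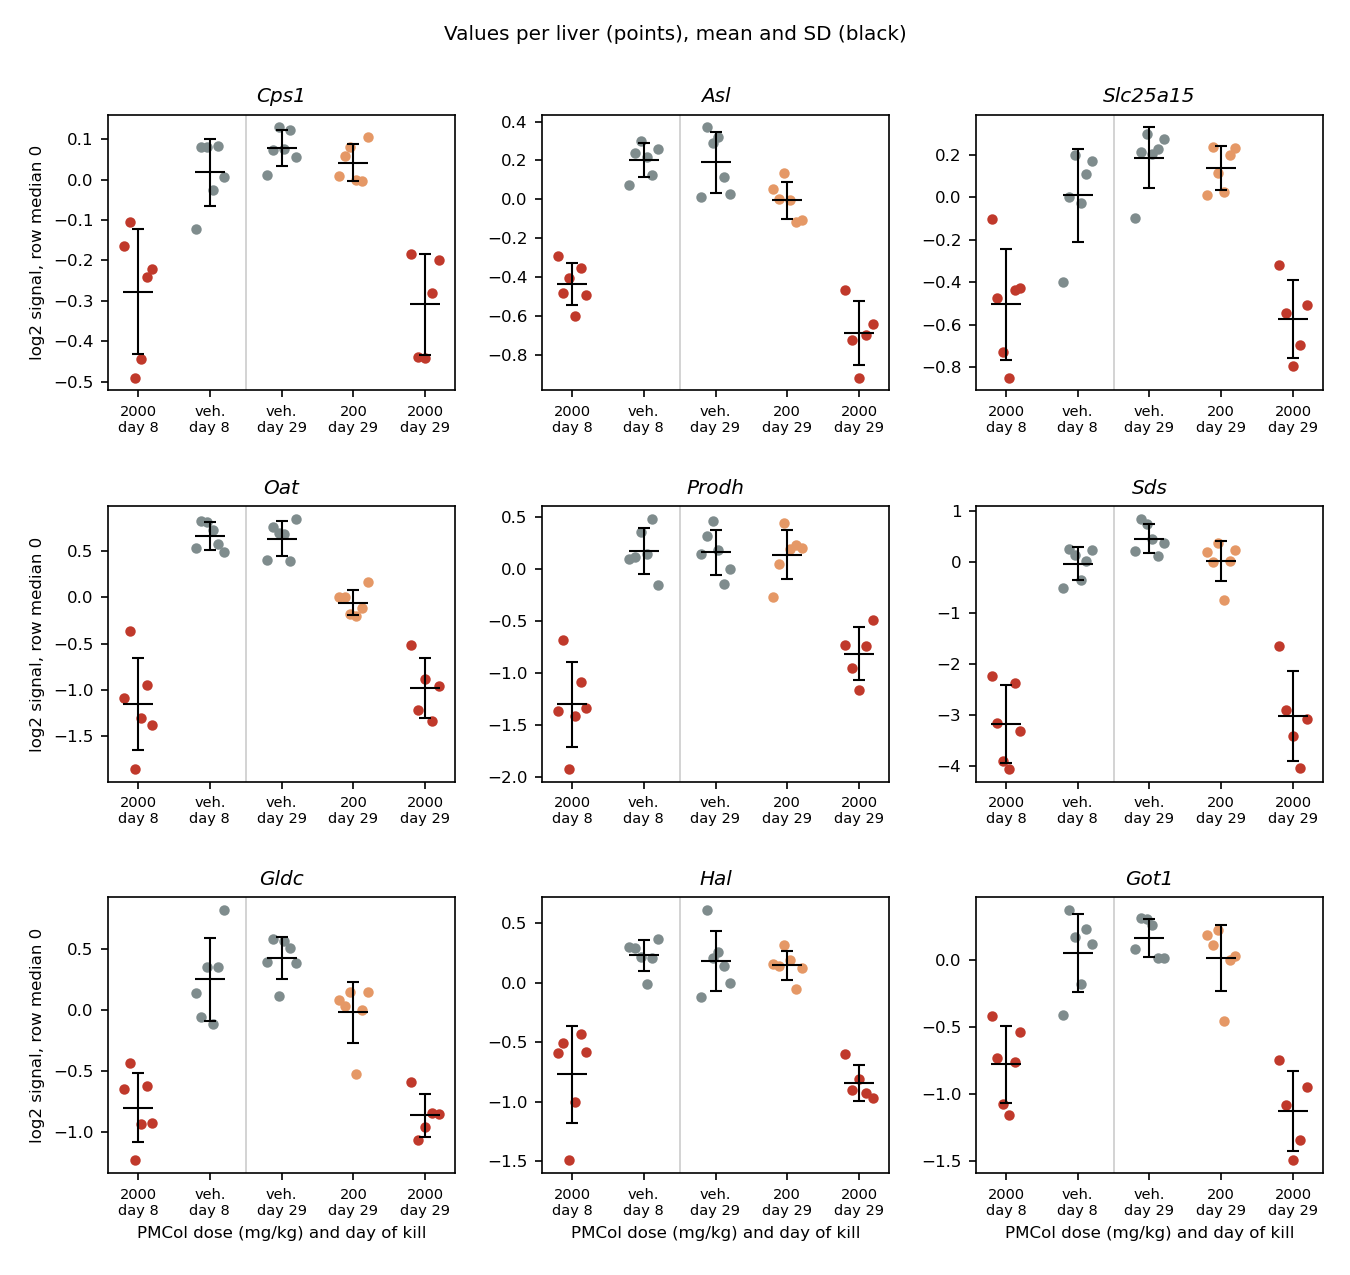
Log2 signal per liver, centred on each gene's median, for 9 genes (vertical axes, scaled gene by gene) in the 5 groups of dose and day (horizontal axis); points are livers and black marks the mean and SD. Oat steps down with dose at day 29, whereas Prodh, Hal and Slc25a15 at 200 mg/kg overlap the vehicle livers.

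Single livers differed in how far the falls went. Over the 19 genes that fell at both days, the mean value ran -1.03 to -0.45 in the livers at 2000 mg/kg on day 8, against 0.033 to 0.22 for vehicle. On day 29 it ran -0.76 to -0.40 at 2000 mg/kg, against 0.086 to 0.34 for vehicle. Since the 19 were chosen by these same calls, the means are a description. Animal 3 of 2000 mg/kg on day 8 was lowest of its group in 14 of the 19 genes and animal 2 was highest in 12. At day 29, animal 1 of 2000 mg/kg was highest in 12, with a mean of -0.40, and its Sds value was -1.66 where the next liver had -2.91.

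Markers of other liver cells are given here as measured. Of all rows, 9.32% fell and 9.32% rose at 2000 mg/kg at day 8, and 9.55% fell and 12.1% rose at day 29. Between vehicle livers of day 29 and day 8, 1.77% of all rows fell. At day 8, 11 of 11 Kupffer cell and macrophage markers fell at 2000 mg/kg, and their mean ran -0.66 to 0.11, against 0.38 to 1.32 for vehicle. At day 29, 0 of 11 passed (limma, and 0 at an unadjusted p under 0.05), and the mean ran -0.81 to 0.50, against -0.58 to 0.87 for vehicle. Vehicle livers of day 29 were lower than those of day 8 in 11 of 11. Of 10 stellate cell and fibroblast markers, 4 fell and 1 rose at day 8 and 9 fell at day 29, with means of -0.56 to -0.28 at 2000 mg/kg on day 29, against 0.20 to 0.69 for vehicle. Of 3 bile duct markers, Epcam rose at both days, by 0.82 and 0.88 on the log2 scale, with every treated liver above every vehicle liver. Of 3 endothelial markers, 1 fell at day 8 (Cdh5) and none passed at day 29 (limma, with 1 higher at an unadjusted p under 0.05), and 3 of 3 were lower in vehicle livers of day 29 than in those of day 8. Of 8 T, B and NK cell markers, 3 fell at day 8 (Ptprc, Nkg7 and Cd8a) and none passed at day 29 (limma, and 0 at an unadjusted p under 0.05). Of 3 erythrocyte markers, 2 fell at day 8 and none passed at day 29 (limma, and 0 at an unadjusted p under 0.05). Of 8 markers of hepatocytes near the central vein, 6 fell and 1 rose at day 8, and 1 fell and 1 rose at day 29. The part of these markers in the results was not tested, and with no absolute levels in the values none can be said to be at 0.

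Of 48 measured other genes of the same pathways, 8 rose and 19 fell at day 8, and 8 rose and 16 fell at day 29, all against vehicle at 2000 mg/kg. Among all rows 9.32% rose and 9.32% fell at day 8, and 12.1% rose and 9.55% fell at day 29. Among rows with stored signals of 8 or more, which took in 40 of the 48, 19.8% and 23.8% rose, so that the rises were no more frequent than in those rows. Pycr1, which makes proline, rose by 0.70 ± 0.094 (adjusted p = 2.57e-06) at day 8 and by 1.13 ± 0.099 (adjusted p = 1.6e-09) at day 29, while Prodh, which breaks proline down, fell. Odc1, the polyamine enzyme that also uses ornithine, rose by 0.62 ± 0.12 (adjusted p = 0.000333) and 0.91 ± 0.12 (adjusted p = 3.45e-06). Both had every treated liver above every vehicle liver. The row of Pycr1 was not among those with stored signals of 8 or more, nor were the rows of Bcat2 and Acmsd, which are given below.

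Hibch, of valine breakdown, rose by 1.04 ± 0.092 (adjusted p = 2.14e-09) and 1.08 ± 0.096 (adjusted p = 2.63e-09), and Bcat2, a branched-chain transaminase, by 0.38 ± 0.080 (adjusted p = 0.00097) and 0.61 ± 0.084 (adjusted p = 3.4e-06). Bckdk, the kinase that switches off the branched-chain keto acid dehydrogenase, rose by 0.17 ± 0.045 (adjusted p = 0.00865) and 0.29 ± 0.047 (adjusted p = 3.27e-05). Pycr1, Hibch and Bckdk also rose at 200 mg/kg, by 0.34, 0.46 and 0.19 on the log2 scale. Shmt2, the mitochondrial enzyme that links serine and glycine, rose by 0.19 ± 0.063 (adjusted p = 0.034) and 0.53 ± 0.066 (adjusted p = 9.61e-07).

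Among the falls, Hao1, which makes glyoxylate in peroxisomes, differed by -1.05 ± 0.076 (adjusted p = 4.67e-11) at day 8, -0.91 ± 0.080 (adjusted p = 1.85e-09) at day 29 and -0.30 ± 0.076 (adjusted p = 0.03) at 200 mg/kg. Aspg, an asparaginase, differed by -0.70 ± 0.11 (adjusted p = 1.4e-05) and -1.08 ± 0.11 (adjusted p = 2.92e-08). Acmsd, which diverts tryptophan carbon from NAD, differed by -0.91 ± 0.15 (adjusted p = 6.8e-05) and -0.69 ± 0.16 (adjusted p = 0.00204). Tat, the entry enzyme of tyrosine breakdown, differed by -0.023 ± 0.058 (adjusted p = 0.855) at day 8 and -0.44 ± 0.060 (adjusted p = 3.85e-06) at day 29, and the change between days passed at -0.41 ± 0.084 (adjusted p = 0.0198). Slc7a2, a carrier of arginine and ornithine, differed by -0.23 ± 0.074 (adjusted p = 0.0249) and -0.53 ± 0.077 (adjusted p = 9.12e-06).

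Of 9 measured regulators known to act on these genes, 2 fell and 0 rose at day 8, and 2 fell and 1 rose at day 29. All 9 had stored signals of 8 or more, and of such rows 16.7% fell at day 8 and 17% at day 29, so that the count of regulators lay near that share. Nr3c1, the glucocorticoid receptor, differed by -0.20 ± 0.068 (adjusted p = 0.0356) and -0.39 ± 0.072 (adjusted p = 0.000153). Klf15, a factor known to raise amino acid breakdown genes in fasted mouse liver, differed by -0.16 ± 0.12 (adjusted p = 0.399) and -0.50 ± 0.12 (adjusted p = 0.00311). Hnf4a fell at day 8 (-0.14 ± 0.044 (adjusted p = 0.0245)), and Sirt5, the deacylase that acts on Cps1, rose at day 29 (0.19 ± 0.058 (adjusted p = 0.0169)). Gcgr, Foxo1, Ppargc1a, Cebpa and Cebpb passed at neither day.

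Promoter windows were in RefSeq's table for 27 of the 33 measured genes; Sds, Prodh, Hal, Arg1, Bckdha and Gpt had none. The 7 short motifs were searched on both strands, in 1 window per gene, the first listed. The share of all 33469 windows that hold each is given as a measure of how common it is. That share counts windows and not genes. The CCAAT box (CCAAT) was in 16 of 27 windows, against 37.5% of all windows, and the GC box (GGGCGG) in 14, against 33.1%. The TATA box (TATAAA) was in 4, against 14.2%. The half-site of the cAMP response element (TGACG) was in 5, against 21.2%, and the half-site of the glucocorticoid response element (TGTTCT) in 4, against 20.7%. The antioxidant response element core (TGACNNNGC) was in 5, against 12.1%, and the amino acid response element core (TGATGNAA) in 1, that of Got1, against 3.98%. Such matches describe letters in these windows and were not tested as sites.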

How the data were processed

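Each of 29 livers gave RNA for its own Affymetrix array, which reads whole transcripts, per the labels. The authors deposited log2 values for 27342 rows, each with a median of 0 over the arrays, as the values show. PLIER and MAS5 stand in the submitters' processing notes; how arrays were normalized and whether an offset was added is not given in the sources used here, and an offset would shrink folds of dim genes. The number of arrays limits the precision. Platform annotation gave 1 symbol for 15097 rows, several for 323 and none for 11922; rows with several were not named. Signals of 8 or more were recognised from the rounding that single-precision storage leaves in the deposited values. Only values at least 0.001 and less than 1 from the row median were judged, and a row needed 10 such values.

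Groups came from the labels, and replicates are separate animals. Differences were fitted with limma 3.58.1 in R 4.3.3 (group means, eBayes without trend, two-sided, Benjamini-Hochberg over 27342 rows, threshold 0.05), tested on simulated data. A gene with several rows was counted once, by the row with signals of 8 or more, then by the lowest probe number. Values are given for all urea cycle genes and for up to 3 genes per other pathway with the largest change that passed in a comparison of 2000 mg/kg with vehicle. The genes and lists were chosen with earlier results of these data known. No 2 arrays correlated above 0.725. Array slides and scan dates were not used, and batches were therefore not tested. Figures were drawn with matplotlib 3.10.9. Alternatives were quantile normalization, centring, other sets of rows or animals, moderation, array weights, a replicate block and leaving out each animal.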

Additional observations from a re-analysis of the deposited data

Results flagged for a closer look

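Of 165 groups of 5 or 6 livers checked, 10 held an animal far from the rest by Dixon's test, which chance alone gives in about 1 of 20 groups. Animal 4 of 200 mg/kg on day 29 was lowest of its group for Sds (-0.74), Gldc (-0.52) and Got1 (-0.46). Animal 3 of 2000 mg/kg on day 8 was lowest for Kynu (-0.91) and for Gpt (-0.83). Vehicle animal 1 of day 29 was lowest for Slc25a15 (-0.097), Hgd (-0.18) and Hibadh (-0.55), and it had the lowest array weight of the 29, 0.282. In vehicle livers of day 8, animal 4 was lowest for Prodh2 (0) and animal 3 highest for Glud1 (0.13).

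The effect of 2000 mg/kg on Nags differed between the days by the test of the change, at 0.59 log2 units for day 29 minus day 8 (adjusted p = 0.0367 by limma). Its effect was -0.33 at day 8 and 0.27 at day 29, and the vehicle livers of day 29 were lower than those of day 8 by 0.42 on the log2 scale.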

How the results depend on the processing

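The number of the 33 genes that passed at 2000 mg/kg stayed at 20 to 21 on day 8 and 19 to 21 on day 29 when each animal was left out in turn, and at 15 to 18 between the doses. It ranged 1 to 3 at 200 mg/kg, 0 to 1 for the change between days and 0 to 5 between the vehicle groups. The differences themselves were counted for all urea cycle genes and for up to 3 genes per other pathway with the largest change, not for all 33. Of these differences, 1883 of those without 1 animal kept their side of the threshold, 52 lost it and 9 gained it. Under the other settings 1217 kept it, 10 lost it and 21 gained it. No difference among these that passed changed sign. Agxt, Gcsh, Gpt and Tdo2, whose calls also shifted under some settings, were not among the genes counted. At 200 mg/kg, where 2 passed, the count was 1 with array weights, 1 without vehicle animals 1 and 2 of day 29, 4 when rows with stored signals of 8 or more alone were tested (fewer rows, lighter adjustment) and 0 at an adjusted p of 0.01. Those 4 were not all falls. They took in Gldc, lower by 0.44 (adjusted p = 0.0430), and Gpt, higher by 0.43 (adjusted p = 0.0380). The change between days passed for 0 genes with quantile normalization, 0 with the replicate block and 0 at an adjusted p of 0.01, as it did without each of 10 animals. Between vehicle groups the count was 0 with only the animals compared, 4 with array weights, 4 for rows of 8 or more and 0 at an adjusted p of 0.01; it was 5 without vehicle animal 2 of day 29 and 0 without vehicle animals 5 or 6 of day 29 or 2 of day 8. The cause of these shifts was not tested except where stated. Replicate numbers were not used as pairs in the main fit. Over 28 pairs of same-numbered animals, deviations from the group means correlated at -0.28 to 0.30, above 0.1 in 5. Animals with different numbers were not compared in this way, so these values cannot decide whether the numbers pair the samples. With the numbers as a replicate block, Mccc1 at 2000 mg/kg on day 29 lost its call (adjusted p = 0.0664), as did Fah and Mccc1 between the doses (0.0609 and 0.0729) and Nags in the change (0.0617), and Amt between the doses gained it (0.0308).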
